A study of Mus musculus with 10 samples.

Results

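Glomeruli of diabetic mice that had received an Esm-1 plasmid were compared with glomeruli of diabetic mice that had received saline, across all genes with enough reads. The comparison used 7 of the 10 libraries of the series, 3 labelled diabetic Esm-1 and 4 labelled diabetic saline. Of the 12934 genes in the table, 7925 had a normalized count of at least 10 in at least 3 of these 7 libraries and were tested, and 5009 were below that minimum. Of the tested genes, 17 passed with no diabetic saline library at the minimum and 68 with no diabetic Esm-1 library at it.

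All animals were wildtype DBA/2J mice of 17 weeks, a strain labelled as susceptible to diabetic kidney disease. At 7 weeks of age each received a hydrodynamic injection, a fast injection of a large volume into a vein that delivers DNA mainly to the liver. The diabetic saline group (n = 4) received saline, and the diabetic Esm-1 group (n = 3) received a plasmid that expresses mouse Esm-1. Given with it, Sleeping Beauty transposase moves the encoded gene into chromosomes of the cells so that expression lasts. Both groups received daily low doses of streptozotocin, a toxin of the insulin-producing cells, from 8 weeks of age and then a 60% high-fat diet for 5 weeks. The non-diabetic saline group (n = 3) received saline and vehicle, and it is given below for reference. No library analysed here came from mice given a plasmid or transposase without Esm-1, so Esm-1 cannot be told apart from the plasmid and the enzyme, and none came from non-diabetic mice given Esm-1. The promoter that drives the plasmid is not stated, and neither is whether each library came from 1 animal, so p-values measure the spread between libraries.

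Esm-1, or endocan, is a small proteoglycan that endothelial cells secrete, and it binds leukocyte integrins and growth factors in the circulation. The glomerulus is a tuft of fenestrated capillaries held by mesangial cells and wrapped by podocytes, whose foot processes and slit diaphragms complete the filtration barrier on a shared basement membrane. In diabetic kidney disease podocytes and endothelial cells are injured and matrix accumulates, and interferon-stimulated genes are a known part of the inflammatory response of kidney cells.

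The 7 libraries held 3931712 to 9980593 reads, of which 91.1% to 92.8% fell on Rn45s (the ribosomal RNA precursor), Lars2 and Mir6236. The other genes shared 338549 to 886746 reads per library, and 1 read was worth 0.651 to 1.77 normalized counts, the authors' scaled read counts in which all values below are given. Diabetic saline 4 was the shallowest library. Podocyte and endothelial markers were present in every library, and so were tubule markers. Umod, made by the thick ascending limb, was at 887, 339, 457 and 363 in diabetic saline 1 to 4 and 539, 903 and 954 in diabetic Esm-1 1 to 3. The macrophage markers were low, with Emr1 at most 1.20 in diabetic Esm-1 and 3.45 in diabetic saline, C1qa at most 7.63 and 2.58, Cd68 at 5.99 to 13.4 and 1.72 to 8.85, and Csf1r at 9.77 to 13.4 and 7.75 to 14.2. Cd3e of T cells was at most 10.5.

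Esm1 RNA itself was scarce in the isolated glomeruli. It stood at 3.2, 0.925, 1.72 and 1.77 in diabetic saline 1 to 4 and at 6.51, 3.81 and 0 in diabetic Esm-1 1 to 3, with 2.48, 1.81 and 0 in the 3 non-diabetic libraries. The groups overlapped, since diabetic Esm-1 3 had no read of it. The gene was below the minimum, and the summed reads per unit of depth were 2.08 times as high in the diabetic Esm-1 group (14 against 8 reads, exact 95% interval 0.813 to 5.71, counting error only). A difference in glomerular Esm1 was therefore not detected at this depth, and Esm-1 protein in the blood was not measured here.

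Ackr2, a decoy receptor that takes up and degrades inflammatory CC chemokines, was lower with the plasmid. It stood at 29.6, 31.5, 15.5 and 23.01 in the diabetic saline libraries and at 9.77, 3.81 and 13.2 in the diabetic Esm-1 libraries. All 3 Esm-1 libraries were below the lowest saline library, by a log2 difference of -1.47 (SE 0.34, limma adjusted p = 0.134). Cxcl11, an interferon-induced ligand of CXCR3, stood at 14.4, 41.6, 40.5 and 8.85 against 15.6, 10.5 and 10.8, and the groups overlapped (-0.80, SE 0.50, limma adjusted p = 0.6).

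Across all genes the test made no call. In a limma fit on log2(normalized count + 1), 0 of 7925 genes had an adjusted p under 0.05 (0.0%), and the lowest adjusted p was 0.125. At an unadjusted p under 0.05, 291 genes were higher with the plasmid (3.67%) and 575 were lower (7.26%). The median log2 difference of all genes was 0.0037. Of the 68 genes that passed with no diabetic Esm-1 library at the minimum, 29 had an unadjusted p under 0.05. Of the 17 that passed with no diabetic saline library at it, 13 did. The values of the groups did not overlap for 294 higher (3.71%) and 436 lower genes (5.5%). On the recovered reads edgeR's quasi-likelihood test also called 0 genes (324 higher and 551 lower at an unadjusted p under 0.05). DESeq2 called 1 gene higher and 29 lower, 1.85% of the 1626 genes to which it gave an adjusted p. All 30 had a limma adjusted p under 0.2, a level that genes it did not call, such as Slc2a3 and Ackr2, also reached. DESeq2 gave the other 6299 tested genes no adjusted p, so a gene without a call was not necessarily assessed by it. Single libraries moved these counts. Without diabetic saline 1, limma called 7 genes higher and 45 lower, and 23 of these 52 were among the 30 DESeq2 calls. Without diabetic Esm-1 1 it called 8 lower, and without any of the other 5 libraries it called 0. At an unadjusted p under 0.05, leaving out diabetic Esm-1 2 left 181 higher genes, and leaving out diabetic Esm-1 3 left 136 higher and 336 lower.

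**Figure D1:**
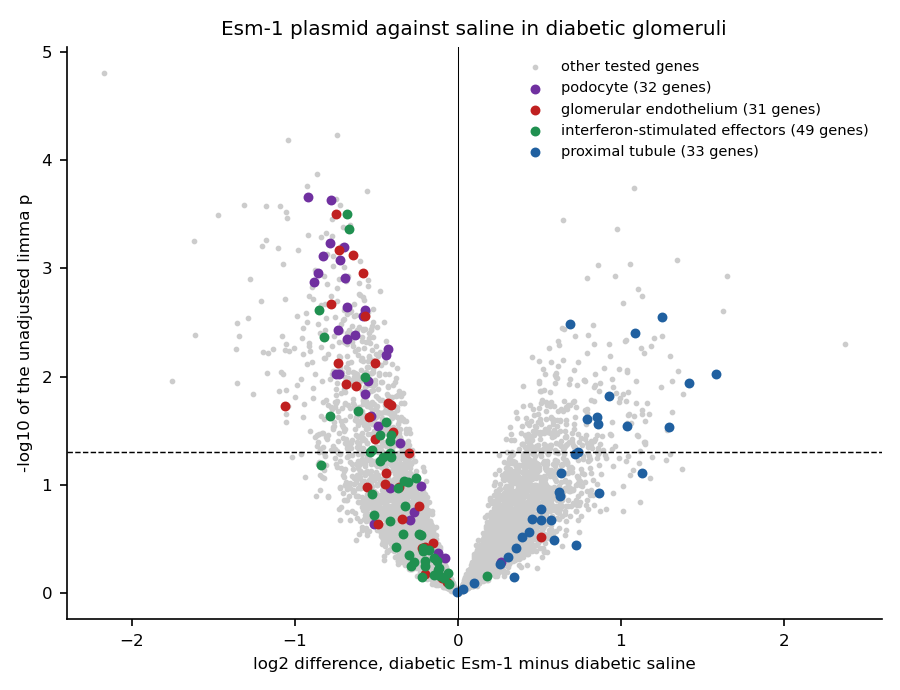
Each point is 1 of 7925 tested genes, with the log2 difference between diabetic Esm-1 (n = 3) and diabetic saline (n = 4) libraries on the x axis and the −log10 of the unadjusted limma p on the y axis. The dashed line marks the unadjusted threshold of 0.05; podocyte, endothelial and interferon-stimulated genes lie mostly left of 0 and proximal tubule genes right of it, and no gene had an adjusted p under 0.05.

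The gene with the lowest p was Slc2a3, the glucose transporter GLUT3. No diabetic Esm-1 library reached the minimum of 10 for it, so it passed only through the diabetic saline libraries. It stood at 13.6, 19.4, 11.2 and 21.2 in diabetic saline 1 to 4 and at 1.95, 2.86 and 3.59 in diabetic Esm-1 1 to 3, against 14.9, 20.0 and 9.97 in the non-diabetic libraries. Each Esm-1 library held 3 reads of it, and the group sums gave a ratio of 0.17 (9 against 63 reads, exact 95% interval 0.074 to 0.343, counting error only; limma adjusted p = 0.125). Slco2a1, a prostaglandin transporter, followed at 161, 203, 212 and 227 in diabetic saline and 128, 112 and 116 in diabetic Esm-1, a log2 difference of -0.74 (SE 0.15, limma adjusted p = 0.134). C1qtnf1, a secreted protein related to adiponectin, stood at 132, 210.1, 214 and 218 against 107, 122 and 85.0 (-0.86, SE 0.18, limma adjusted p = 0.134). For all 3 genes the Esm-1 libraries lay below every saline library. These and the other genes described outside the rule of the methods were chosen after their values were seen.

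Podocyte genes were lower with the plasmid as a list. Of 34 listed, 32 were tested and 31 were lower. At an unadjusted p under 0.05, 24 were lower (75%, against 7.26% of all tested genes) and 0 higher, and none passed the limma adjustment. The median log2 difference was -0.58, beside 0.0037 over all genes. The mean of the list on the log2 scale was 6.98, 7.47, 7.37 and 7.22 in diabetic saline 1 to 4 and 6.98, 6.69 and 6.47 in diabetic Esm-1 1 to 3. Diabetic saline 1 and diabetic Esm-1 1 were thus at almost the same level, and the groups met there. In non-diabetic glomeruli the mean was 7.50 to 7.88.

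Nphs1, nephrin, the main protein of the slit diaphragm, stood at 231, 384, 265 and 305 in diabetic saline 1 to 4, 223, 154 and 139 in diabetic Esm-1 1 to 3 and 396, 535 and 337 in non-diabetic saline 1 to 3. The Esm-1 libraries were the lowest of the 10, with diabetic Esm-1 1 just under diabetic saline 1, at a log2 difference of -0.78 (SE 0.19, limma adjusted p = 0.142). Podxl, podocalyxin, the charged sialomucin of the foot process surface, stood at 1257, 1942, 1767 and 1650.0 against 1223, 907 and 776 (-0.78, SE 0.18, limma adjusted p = 0.134). Slc9a3r2, the NHERF2 scaffold that links podocalyxin to the cytoskeleton, stood at 67.2, 82.4, 127 and 88.5 against 46.9, 50.5 and 41.9 (-0.93, SE 0.20, limma adjusted p = 0.134). None of these genes overlapped between the groups. DESeq2 called all 3 lower.

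The transcription factor Wt1, required to keep podocytes differentiated, stood at 77.6, 118, 109 and 122 in diabetic saline and 73.6, 59.1 and 46.7 in diabetic Esm-1, a difference of -0.83 (SE 0.21, limma adjusted p = 0.146). Synpo, which binds actin in foot processes, stood at 326, 515, 433 and 365 against 305, 261 and 253 (-0.57, limma adjusted p = 0.206). Crb2, a polarity protein needed for the slit diaphragm, stood at 21.6, 37.0, 29.3 and 24.8 against 14.3, 13.3 and 5.99 (-1.31, SE 0.30, limma adjusted p = 0.134), and Daam2, a formin that builds actin filaments, at 76.8, 114, 119 and 117 against 58.0, 60.1 and 37.1 (-1.04, SE 0.21, limma adjusted p = 0.134). In these 4 genes every Esm-1 library was below every saline library. The intermediate filament gene Nes was at 403, 616, 553 and 509.9 against 411, 297 and 259.8, and there diabetic Esm-1 1 overlapped diabetic saline 1. Mertk, a receptor kinase that binds dying cells, was at 51.2, 92.5, 106 and 58.4 against 45.6, 33.4 and 40.7 (-0.88, limma adjusted p = 0.165).

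Not every podocyte gene shared the size of this difference. Actn4, the actin crosslinker that most kidney cells express, stood at 899, 849.6, 877 and 887 in diabetic saline and 797, 849.6 and 846 in diabetic Esm-1, a difference of -0.08 (SE 0.11, limma adjusted p = 0.831). Cd2ap differed by -0.12 and Myo1e by -0.23, both also made outside podocytes. The only listed member with a positive difference was Tyro3 (0.26), with a mean near the minimum. Vegfa, the growth factor that podocytes supply to the capillaries, stood at 426, 465, 465 and 607 against 373, 378 and 334, which did not overlap (-0.43, SE 0.14, limma adjusted p = 0.229). In bulk glomeruli, fewer cells of a type and less RNA per cell cannot be told apart.

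**Figure D2:**
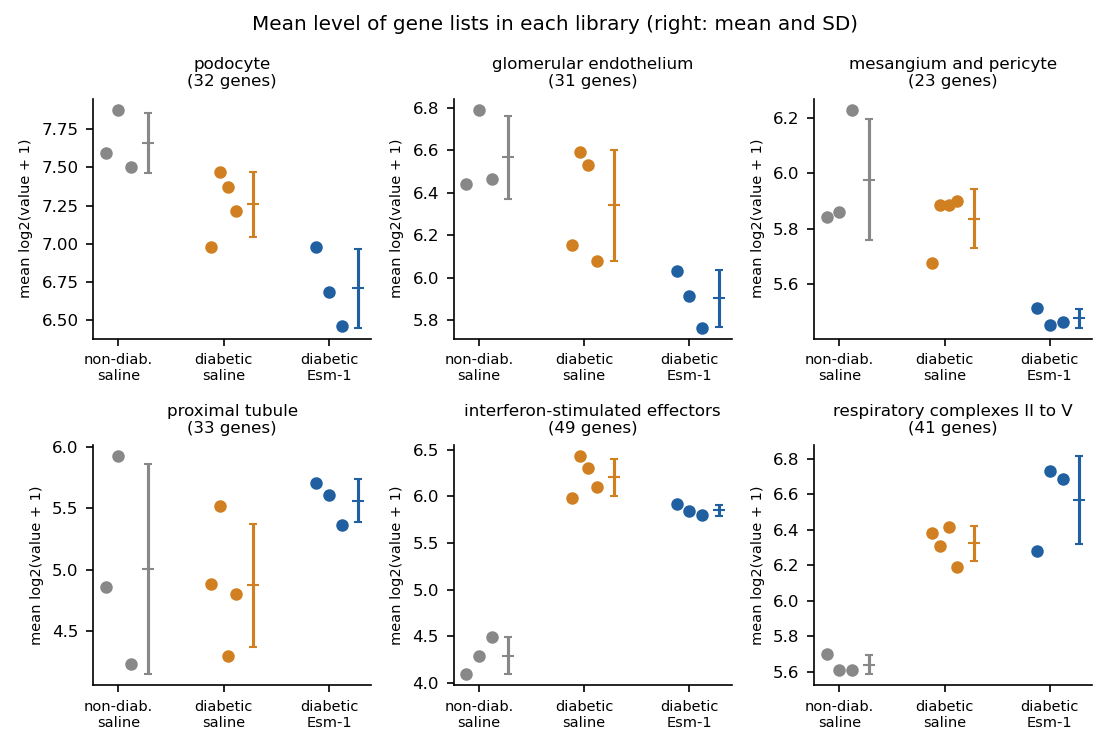
Mean of log2(normalized count + 1) over the tested genes of 6 lists, with 1 point per library and the mean and SD of each group at its right; the y axes do not start at 0. The mesangium, interferon and endothelial lists separate the diabetic Esm-1 from the diabetic saline libraries, by a narrow margin for the interferon and endothelial lists. In the podocyte list the groups meet, and in the proximal tubule and respiratory lists they overlap.

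Endothelial genes gave a similar picture. Of 36 listed, 31 were tested, 30 were lower and 16 were lower at an unadjusted p under 0.05 (51.6%, against 7.26% of all tested genes), with 0 higher. Without diabetic Esm-1 3 the 16 became 10. The median difference was -0.44. Eng, endoglin, a co-receptor for BMP9 on endothelium, stood at 214, 342, 372 and 251 in diabetic saline and at 173, 173 and 168 in diabetic Esm-1. The Esm-1 libraries lay close together, all below the saline libraries, by -0.75 on the log2 scale (SE 0.17, limma adjusted p = 0.134). Cdh5, VE-cadherin of endothelial junctions, stood at 368, 422, 379.9 and 290.3 against 276, 235 and 217 (-0.58, SE 0.15, limma adjusted p = 0.164). Ehd3, a trafficking protein typical of glomerular endothelium, stood at 106, 121, 164 and 127 against 77.5, 79.1 and 74.2 (-0.73, SE 0.18, limma adjusted p = 0.142). Neither overlapped, and DESeq2 called all 3 genes lower.

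Plat, tissue plasminogen activator, an endothelial protease that starts clot lysis, stood at 977, 1318, 1267 and 894 in diabetic saline and 853, 610.3 and 648 in diabetic Esm-1, without overlap (-0.66, SE 0.16, limma adjusted p = 0.139). Nos3, the endothelial nitric oxide synthase, was at 100, 79.6, 90.4 and 81.4 against 72.9, 70.6 and 52.7 (-0.43, limma adjusted p = 0.327). Kdr, the main VEGF receptor, was at 196, 317, 288 and 204 against 195, 209.8 and 157 and overlapped (-0.40, limma adjusted p = 0.403). The defining endothelial markers Pecam1 and Emcn overlapped too. Pecam1 ran from 177 to 274 in diabetic saline and 154 to 189 in diabetic Esm-1, and Emcn from 52.0 to 98.1 and 46.7 to 65.8. The VEGF receptor Flt1 differed by -0.15 and Cldn5, a tight junction claudin, by -0.07. Of 25 tested genes of VEGF, angiopoietin and endoglin signalling, 22 were lower, 10 of them at an unadjusted p under 0.05 (40.0%, against 7.26% of all tested genes) with 1 higher, at a median of -0.40. The 10 became 4 without diabetic saline 3 or without diabetic Esm-1 3 and 5 without diabetic saline 2. With the mean of the glomerular markers in the fit, described below, the count was 0 at a median of 0.12. Members such as Eng are also in the endothelial list, which enters that mean. The 1 higher gene was Pdgfb, the endothelial growth factor that recruits mesangial cells. It stood at 49.6, 42.6, 48.2 and 54.9 against 86.6, 55.3 and 79.0 (0.56, limma adjusted p = 0.295), without overlap by a narrow margin. The 1 higher gene became 0 without diabetic Esm-1 1 or diabetic Esm-1 3.

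Mesangial and pericyte genes were lower in 20 of 23 tested, 11 of them at an unadjusted p under 0.05 (47.8%, against 7.26%) with 0 higher, at a median of -0.43. The 11 became 5 without diabetic Esm-1 3 and 7 without diabetic saline 2. The list mean on the log2 scale was 5.67 in diabetic saline 1 and 5.88 to 5.90 in the other 3 saline libraries, and 5.45 to 5.51 with the plasmid, without overlap. Des, desmin, the intermediate filament of contractile cells, stood at 33.6, 67.6, 57.7 and 42.5 in diabetic saline and 18.9, 30.5 and 19.2 in diabetic Esm-1 (-1.09, SE 0.25, limma adjusted p = 0.134). Cald1, caldesmon, which regulates actin and myosin, stood at 258, 386, 377 and 441 against 244, 219 and 182 (-0.74, SE 0.17, limma adjusted p = 0.134). Both were without overlap. Sfrp2, a secreted modulator of Wnt signalling, was at 57.6, 118, 106 and 47.8 against 50.8, 52.4 and 33.5, where diabetic saline 4 was below 2 Esm-1 libraries (-0.76, limma adjusted p = 0.265). The smooth muscle genes Myh11, Acta2 and Tagln had positive differences (0.66, 0.47 and 0.36), with limma adjusted p of 0.654, 0.799 and 0.719. Tmsb4x, thymosin beta 4, which holds actin monomers in many cell types, was at 152, 251, 270.5 and 290.3 against 145.2, 144.9 and 122 (-0.77, limma adjusted p = 0.146).

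Of 38 tested basement membrane and matrix genes, 30 were lower and 8 higher. At an unadjusted p under 0.05, 16 were lower (42.1%, against 7.26% of all tested genes) and 2 higher (5.26%, against 3.67%), at a median of -0.37. With the mean of the glomerular markers in the fit the median was 0.06, with 1 gene lower and 1 higher at that level. Col4a3 encodes a collagen IV chain that podocytes lay down in the mature glomerular basement membrane. It stood at 558, 890.3, 848 and 867 in diabetic saline and 549.6, 525 and 375 in diabetic Esm-1, with diabetic saline 1 far below the other saline libraries and still above the Esm-1 group (-0.71, SE 0.17, limma adjusted p = 0.139). Its partner Col4a4 stood at 414, 485, 519 and 522 against 369.9, 361 and 310.1 (-0.48, SE 0.13, limma adjusted p = 0.182). Col4a1, a collagen IV chain of the mesangium and of vessels, stood at 748, 802, 778 and 728 against 509, 526 and 519.5 (-0.56, SE 0.12, limma adjusted p = 0.134). None of the 3 overlapped.

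The chains of the glomerular laminin had differences of opposite sign. Lama5, the alpha chain of the glomerular laminin, stood at 529, 539.6, 485 and 512 in diabetic saline and 641, 618 and 679 in diabetic Esm-1, higher in all 3 libraries (0.32, SE 0.14, limma adjusted p = 0.381). Lamb2, the beta chain of the same laminin, stood at 238, 278, 313 and 184 against 232, 203 and 187 and overlapped (-0.27, limma adjusted p = 0.588). Bgn, biglycan, a small matrix proteoglycan, was at 115, 137, 165 and 184 against 94.4, 111 and 92.2 (-0.58, limma adjusted p = 0.217). Of 30 tested genes of proteoglycan cores and heparan or chondroitin sulfate enzymes, 18 were lower and 12 higher, at a median of -0.15 (-0.02 without diabetic saline 3). At an unadjusted p under 0.05, 5 were lower (16.7%, against 7.26% of all tested genes) and 0 higher. The 5 became 8 without diabetic saline 4. With the mean of the glomerular markers in the fit the median was 0.04, with 0 lower at that level. Chst15, which adds sulfate to chondroitin, stood at 95.2, 112, 74.1 and 63.7 against 50.1, 49.6 and 62.3, without overlap by a narrow margin (-0.64, limma adjusted p = 0.226). Among 14 Notch pathway genes 11 were lower, at a median of -0.28. At an unadjusted p under 0.05, 2 were lower (14.3%, against 7.26% of all tested genes) and 0 higher. The 2 became 1 without diabetic saline 2 or diabetic Esm-1 2. The list mean on the log2 scale was 5.38 to 5.49 in diabetic saline and 5.15 to 5.23 in diabetic Esm-1, without overlap. Maml1, a coactivator of Notch targets, stood at 49.6, 63.9, 76.7 and 83.2 against 50.1, 33.4 and 51.5 and overlapped (-0.59, limma adjusted p = 0.272).

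**Figure D3:**
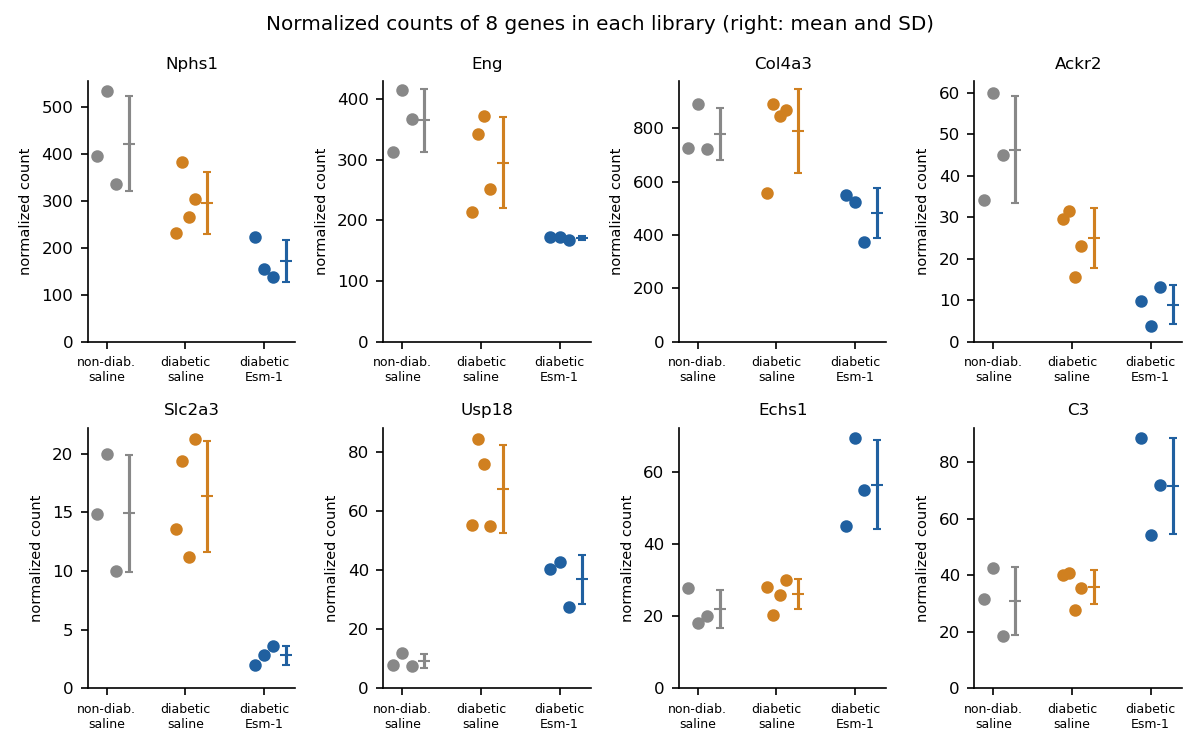
Normalized counts of 8 genes, with 1 point per library and the mean and SD of each group at its right. The y axes start at 0. Slc2a3 passed the minimum of 10 only through the diabetic saline libraries. Nphs1, Eng, Col4a3, Ackr2, Slc2a3 and Usp18 are lower and Echs1 and C3 higher in every diabetic Esm-1 library (n = 3) than in any diabetic saline library (n = 4), by a narrow margin for Nphs1 and Col4a3.

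Proximal tubule genes were higher in 32 of 33 tested, 11 at an unadjusted p under 0.05 (33.3%, against 3.67% of all tested genes) and 0 lower, at a median of 0.63. The 11 became 6 without diabetic saline 3 and 19 without diabetic saline 2. The list mean on the log2 scale was 4.88, 5.51, 4.29 and 4.80 in diabetic saline 1 to 4 and 5.71, 5.61 and 5.37 in diabetic Esm-1 1 to 3, and diabetic saline 2 lay within the Esm-1 range. The non-diabetic libraries ran from 4.23 to 5.92, wider than both other groups together. Slc22a6, the organic anion transporter OAT1, stood at 24.8, 21.3, 9.47 and 14.2 against 37.1, 51.5 and 34.7 without overlap (1.26, SE 0.37, limma adjusted p = 0.207). Lrp2, megalin, and Cubn, cubilin, together take up filtered protein. Lrp2 stood at 161, 239, 104 and 126 against 402, 198 and 220.3 (0.79, limma adjusted p = 0.36) and Cubn at 52.8, 70.3, 12.1 and 23.01 against 91.2, 63.9 and 51.5 (1.04, limma adjusted p = 0.381), both with overlap. Kap, an androgen-regulated tubule gene, was at 15.2, 19.4, 6.89 and 3.54 against 41.0, 55.3 and 11.97 and overlapped, while the water channel Aqp1 was at 106, 63.9, 68.9 and 79.7 against 134, 164 and 92.2 (0.69, limma adjusted p = 0.217).

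Genes of the distal nephron and collecting duct had a median of 0.18, with 26 of 32 higher and 3 of them (9.38%, against 3.67%) at an unadjusted p under 0.05. The 3 became 0 without diabetic saline 2 or diabetic Esm-1 3, 1 without diabetic Esm-1 2, and 5 without diabetic saline 1 or diabetic Esm-1 1. Without diabetic saline 2 the median was 0.11, and without diabetic Esm-1 1 it was 0.31. Slc12a1, the salt transporter of the thick ascending limb, stood at 407, 86.1, 112 and 294 against 271, 379.5 and 330.4, and the Esm-1 libraries lay inside the saline range (0.81, limma adjusted p = 0.466). Umod, given above, differed by 0.71 (SE 0.30, limma adjusted p = 0.374) with overlap, and Aqp2 of the collecting duct by -0.31. Parietal epithelial genes had a median of 0.13, which was 0.05 without diabetic Esm-1 1, 0.27 without diabetic Esm-1 2 and 0.22 without diabetic Esm-1 3. Among them was Scin, an actin-severing protein, at 89.6, 40.7, 56.8 and 58.4 against 78.1, 96.3 and 89.8 (0.56, limma adjusted p = 0.438). The mean of 86 podocyte, endothelial and mesangial genes was 6.33, 6.73, 6.67 and 6.46 in diabetic saline 1 to 4 and 6.25, 6.08 and 5.94 in diabetic Esm-1 1 to 3, on the log2 scale. The share of tubule in each preparation was not measured apart from these genes, and its part in the results below was not tested. The mean of the 86 genes was lower in every diabetic Esm-1 library than in any diabetic saline library. A fit with this mean as a term therefore cannot tell the share of tubule apart from the plasmid, and its values are only set beside the main fit. With this mean in the fit, 0 genes were called, and 172 were higher and 183 lower at an unadjusted p under 0.05. The podocyte median was 0.10, the endothelial 0.17 and the mesangial -0.22, lists that themselves make up the mean. In the same fit the proximal tubule median was 1.44 with 20 genes higher at that level, the distal nephron and collecting duct median turned to -0.29 with 0 higher and 7 lower, and the parietal median was -0.07.

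Interferon-stimulated effectors, the antiviral genes switched on by interferon signalling, were lower with the plasmid and far above the non-diabetic level. Of 49 tested, 48 were lower, 13 of them at an unadjusted p under 0.05 (26.5%, against 7.26% of all tested genes), and 0 were higher at that level. The 13 became 5 without diabetic saline 2, 6 without diabetic saline 3 or diabetic Esm-1 3, and 8 without diabetic Esm-1 2. The median was -0.33, and no member passed the limma adjustment. The list mean on the log2 scale was 5.99, 6.43, 6.31 and 6.10 in diabetic saline 1 to 4, 5.91, 5.84 and 5.80 in diabetic Esm-1 1 to 3, and 4.10 to 4.49 in non-diabetic saline. Every Esm-1 library was thus below every diabetic saline library, by a narrow margin, and above every non-diabetic one. For 46 of the 49 genes the Esm-1 mean lay between the means of the saline groups. With the mean of the glomerular genes in the fit, the median of the effectors was 0.08.

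Many of these genes carry an interferon-stimulated response element near the start site. The sequences below are the promoters of the 4 tested members of the interferon lists with the lowest p among those that hold an ISRE-like motif, GAAANNGAAA on either strand, which is in capitals. They run 5′ to 3′ on the strand of the gene, from 250 bases before to 50 after the RefSeq start site on GRCm38.p6, a later build than that of the authors. They lie at chr11:82951852-82952151 on the plus strand (Slfn5), chr11:78984875-78985174 on the minus strand (Lgals9), chr4:156200769-156201068 on the minus strand (Isg15) and chr11:58199306-58199605 on the plus strand (Igtp).
Slfn5: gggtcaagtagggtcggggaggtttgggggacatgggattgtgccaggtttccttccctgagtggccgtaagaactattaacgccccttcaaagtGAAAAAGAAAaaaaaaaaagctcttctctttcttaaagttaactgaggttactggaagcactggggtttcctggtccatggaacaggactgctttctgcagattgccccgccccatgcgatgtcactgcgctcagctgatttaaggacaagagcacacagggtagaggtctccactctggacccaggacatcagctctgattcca
Lgals9: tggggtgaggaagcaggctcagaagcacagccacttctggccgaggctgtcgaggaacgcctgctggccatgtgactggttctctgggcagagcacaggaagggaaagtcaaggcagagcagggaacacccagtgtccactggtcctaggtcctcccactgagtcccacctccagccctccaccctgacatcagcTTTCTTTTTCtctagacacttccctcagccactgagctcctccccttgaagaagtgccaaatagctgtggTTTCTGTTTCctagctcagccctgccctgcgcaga
Isg15: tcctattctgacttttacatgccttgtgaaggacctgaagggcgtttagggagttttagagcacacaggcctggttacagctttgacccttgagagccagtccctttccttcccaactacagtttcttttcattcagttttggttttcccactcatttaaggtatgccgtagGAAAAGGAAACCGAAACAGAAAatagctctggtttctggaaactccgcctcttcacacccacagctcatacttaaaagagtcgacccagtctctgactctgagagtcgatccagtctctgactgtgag
Igtp: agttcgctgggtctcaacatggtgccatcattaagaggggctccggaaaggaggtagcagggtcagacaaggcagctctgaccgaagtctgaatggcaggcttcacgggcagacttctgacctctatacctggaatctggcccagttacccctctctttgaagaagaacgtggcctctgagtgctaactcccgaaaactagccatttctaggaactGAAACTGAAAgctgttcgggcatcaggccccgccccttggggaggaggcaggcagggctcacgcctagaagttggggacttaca

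Counted from the start site, the first base of the motif is at -155 in Slfn5 and at -34 in Igtp. Lgals9 holds 2, on the opposite strand, 1 of them after the start. Isg15 holds 3 that overlap. The motif was found in 18 of the 37 effector promoters with an entry (48.6%) and in 9 of 10 promoters of guanylate-binding proteins and immunity-related GTPases (90.0%). Among the 6080 tested genes with an entry it was in 219 (3.6%). Trim25 had an entry and no motif in this window. A match describes the letters only.

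Slfn5, a Schlafen family protein that restrains cell growth and viruses, stood at 376, 552, 508 and 501 in diabetic saline 1 to 4, 367, 288 and 259 in diabetic Esm-1 1 to 3 and 219, 293 and 268 in non-diabetic saline 1 to 3. The diabetic groups did not overlap, and 2 Esm-1 libraries were within the non-diabetic range. The log2 difference from diabetic saline was -0.67 (SE 0.16, limma adjusted p = 0.139). Trim25, the ubiquitin ligase that activates the RNA sensor RIG-I, stood at 197, 294, 301 and 257 against 178, 141.1 and 166, with 227, 238 and 227 in non-diabetic glomeruli. Its Esm-1 values were below those of both saline groups (-0.68, SE 0.16, limma adjusted p = 0.134). DESeq2 called these 2 effectors lower and no other among those to which it gave an adjusted p. Usp18, which removes ISG15 from proteins and dampens the interferon receptor, had the largest difference among members with a mean of at least 50. It stood at 55.2, 84.2, 75.8 and 54.9 against 40.4, 42.9 and 27.5, without overlap, and at 8.05, 11.8 and 7.48 in non-diabetic glomeruli (-0.85, SE 0.25, limma adjusted p = 0.206).

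Isg15, the ubiquitin-like protein conjugated in the interferon response, stood at 56.8, 77.7, 77.5 and 65.5 against 41.7, 52.4 and 40.7, without overlap (-0.61, SE 0.24, limma adjusted p = 0.339). Lgals9, galectin-9, was at 49.6, 87.0, 97.3 and 44.3 against 38.4, 44.8 and 28.7, with 34.1, 39.0 and 32.4 in non-diabetic glomeruli (-0.82, limma adjusted p = 0.219). Rsad2, viperin, which blocks viral replication, stood at 562, 954, 927 and 788 against 652, 556 and 546 and at 59.4, 76.2 and 101 without diabetes. Its Esm-1 values overlapped diabetic saline 1 and stayed several times above the non-diabetic ones (-0.44, SE 0.18, limma adjusted p = 0.366). The only effector with a positive difference was Apol9a (0.18), which has the close paralog Apol9b (-0.27). Reads of such near-identical families, among them Oas1, Gbp, Ifit and MHC class I genes, may have been split between members by the authors' counting.

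**Figure D4:**
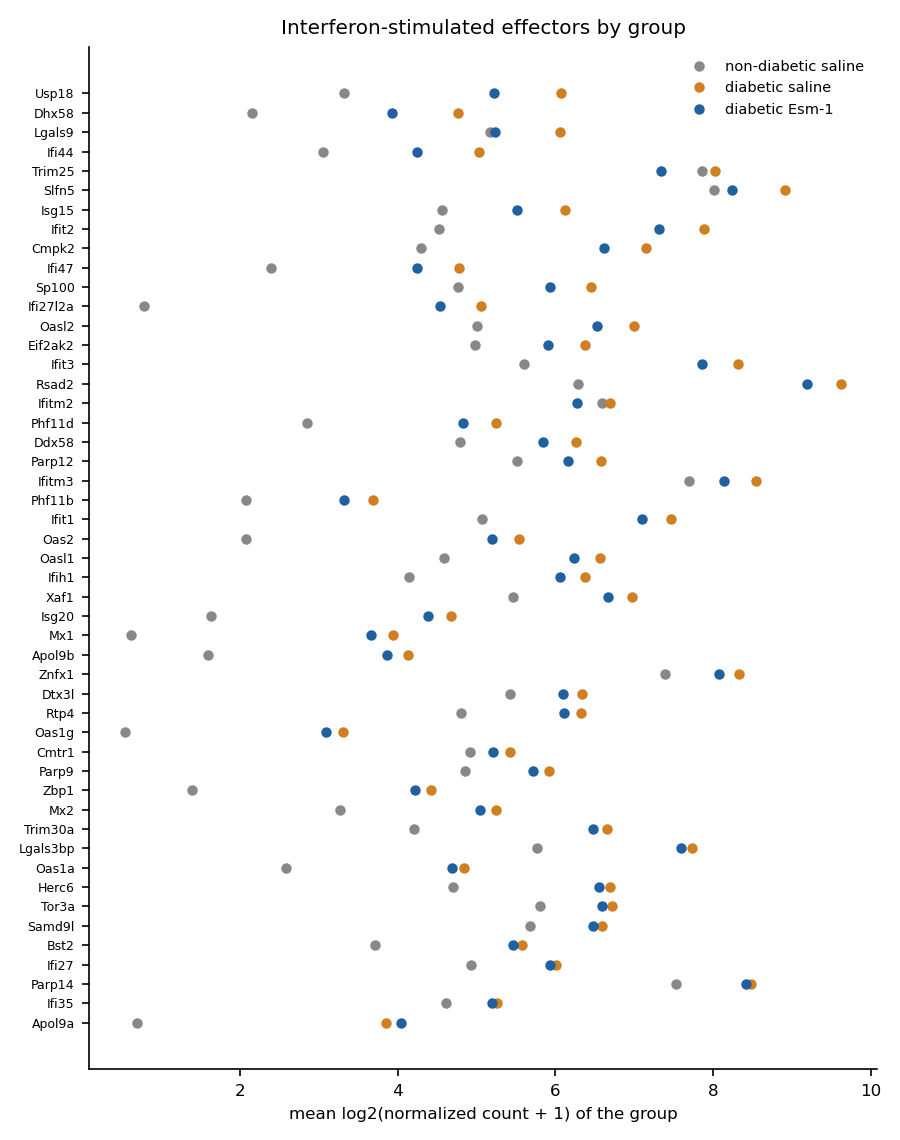
Mean log2(normalized count + 1) of each of 49 interferon-stimulated effectors by group: 3 non-diabetic libraries, 4 from diabetic mice with saline and 3 with the plasmid, ordered from the most negative difference between the diabetic groups at the top. The diabetic Esm-1 mean lies between the saline means for 46 of 49 genes.

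Guanylate-binding proteins and immunity-related GTPases, which attack intracellular pathogens downstream of interferon gamma, were lower in 16 of 16 tested, 5 at an unadjusted p under 0.05 (31.2%, against 7.26% of all tested genes), at a median of -0.42. The 5 became 0 without diabetic saline 2, diabetic saline 3 or diabetic Esm-1 3, 2 without diabetic Esm-1 2 and 8 without diabetic saline 1. With the glomerular mean in the fit the median was 0.13. Igtp stood at 72.8, 134, 105 and 81.4 against 74.2, 59.1 and 55.1, with diabetic saline 1 inside the Esm-1 range (-0.61, SE 0.25, limma adjusted p = 0.366). Iigp1 stood at 310.4, 658, 587 and 449.7 against 362, 325 and 285 and at 100.3, 172 and 243 in non-diabetic glomeruli (-0.58, limma adjusted p = 0.375), again with diabetic saline 1 inside the Esm-1 range. The receptors, kinases and factors of interferon signalling had a median of -0.10 over 24 genes (-0.17 without diabetic Esm-1 1 and -0.15 without diabetic saline 1, and 0.10 with the glomerular mean in the fit). At an unadjusted p under 0.05, 3 were lower (12.5%, against 7.26% of all tested genes), and 1 was without diabetic saline 2, diabetic saline 3 or diabetic Esm-1 3. The largest difference was that of Socs3, an inhibitor of cytokine receptors, at 282, 404, 554 and 386 against 256, 322 and 231 (-0.56, limma adjusted p = 0.224). The kinases Jak1 and Jak2 differed by -0.04 and -0.01.

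MHC class I and antigen processing genes had a median of -0.22, with 18 of 20 lower. Of these, 2 were at an unadjusted p under 0.05 (10.0%, near the 7.26% of all tested genes). The 2 became 0 without diabetic Esm-1 3, 1 without diabetic saline 3, 4 without diabetic Esm-1 1 and 5 without diabetic saline 4, and with the glomerular mean in the fit the median was 0.10. B2m, the shared light chain of class I molecules, stood at 257, 396, 396 and 531 against 341, 235 and 201 and overlapped (-0.60, SE 0.21, limma adjusted p = 0.273). Chemokines, cytokines and adhesion molecules had no common direction, with 10 lower and 9 higher of 19 and a median of -0.07 (-0.18 to -0.01 when 1 library was left out). Cxcl10, the ligand of CXCR3 on T cells, stood at 137, 322, 356 and 150.5 against 176, 154 and 151, with diabetic saline 1 and 4 below the Esm-1 values (-0.46, limma adjusted p = 0.579). Il6, an inflammatory cytokine, stood at 128, 144.4, 180.0 and 159 against 108, 125 and 107 without overlap (-0.42, limma adjusted p = 0.346). Cxcl16, a membrane-bound chemokine, stood at 176, 157, 179 and 177 against 245, 188 and 220.3, higher in all 3 Esm-1 libraries (0.33, limma adjusted p = 0.403). The adhesion molecules Icam1 and Vcam1 differed by 0.10 and 0.29.

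Complement genes had a median of -0.13 over 10 genes (-0.24 without diabetic saline 4 and 0.05 without diabetic Esm-1 3, the ends of its range), but C3, the central component, was higher. It stood at 40.0, 40.7, 27.6 and 35.4 in diabetic saline and 88.6, 54.4 and 71.8 in diabetic Esm-1, without overlap (0.96, SE 0.26, 1.95-fold, limma adjusted p = 0.164). Lcn2, a secreted protein that tubules make on injury, was at 27.2, 7.4, 22.4 and 17.7 against 30.6, 30.5 and 32.3 (0.84, limma adjusted p = 0.424). Spp1, osteopontin, was at 907, 574, 842 and 728 against 828, 1261 and 1314 and overlapped (0.56, limma adjusted p = 0.444). The kidney injury list as a whole had a median of 0.10 over 20 genes (0.02 without diabetic saline 2 or diabetic Esm-1 1, and -0.13 with the glomerular mean in the fit). Myeloid markers had a median of -0.09 over 6 tested genes (-0.16 to 0.04 when 1 library was left out), with Cd14, a co-receptor for bacterial lipopolysaccharide, at 84.0, 119, 106 and 109.8 against 107, 82.0 and 80.2, and none of 23 listed lymphocyte genes reached the minimum.

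Of 35 tested genes listed under respiratory complex I, 32 were higher, 3 at an unadjusted p under 0.05 (8.57%, against 3.67% of all tested genes), at a median of 0.20. The 3 became 0 without diabetic Esm-1 3, 1 without diabetic Esm-1 2 or diabetic saline 4, and 7 without diabetic Esm-1 1. In this list, and among the 3, was Ndufa4 at 53.6, 34.2, 53.4 and 30.1 against 52.7, 63.9 and 73.0 (0.58, limma adjusted p = 0.361). Its protein was named for complex I but is now assigned to cytochrome c oxidase. Of 41 genes of complexes II to V, 37 were higher, 8 at an unadjusted p under 0.05 (19.5%), at a median of 0.22. The 8 became 1 without diabetic Esm-1 2 or diabetic Esm-1 3, 3 without diabetic saline 4, 4 without diabetic saline 2 and 16 without diabetic Esm-1 1. The mean of the second list was 6.28 in diabetic Esm-1 1 and 6.73 and 6.69 in the other 2, against 6.19 to 6.41 in diabetic saline, on the log2 scale. Without diabetic Esm-1 1 the median was 0.38 for each of these lists. With the glomerular mean in the fit it was -0.01 for complex I and 0.11 for complexes II to V, with 0 genes higher at that level in either. The proximal tubule list, described above, was also higher in diabetic Esm-1, and its part in these values was not tested. Cox4i1, a subunit of cytochrome c oxidase, stood at 274, 251, 265 and 257 against 286, 348 and 415 (0.40, SE 0.15, limma adjusted p = 0.277), and Cox8a of the same complex at 74.4, 92.5, 74.1 and 51.3 against 86.0, 120.2 and 104 (0.51, limma adjusted p = 0.374). Mitochondrial ribosomal genes had a median of 0.20 with 0 of 38 at an unadjusted p under 0.05 in either direction. That median was 0.37 without diabetic Esm-1 1, 0.10 without diabetic Esm-1 3 and 0.05 with the glomerular mean in the fit. Cytosolic ribosomal genes had a median of -0.06 (-0.09 to -0.03 when 1 library was left out), with Rpl14 at 68.8, 74.97, 68.9 and 95.6 against 66.4, 55.3 and 53.9 (-0.38, limma adjusted p = 0.526).

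Fatty acid oxidation genes were higher in 27 of 35, 5 at an unadjusted p under 0.05 (14.3%, against 3.67%), at a median of 0.20 (0.36 without diabetic Esm-1 1, 0.12 without diabetic Esm-1 2 and 0.06 with the glomerular mean in the fit). The 5 became 1 without diabetic Esm-1 3 and 2 without diabetic Esm-1 2. Echs1, the enoyl-CoA hydratase of mitochondrial beta oxidation, had the lowest p of all higher genes. It stood at 28, 20.4, 25.8 and 30.1 in diabetic saline, 44.9, 69.6 and 55.1 in diabetic Esm-1 and 27.9, 18.1 and 19.9 in non-diabetic saline. The Esm-1 libraries were above all 7 others, and the log2 difference from diabetic saline was 1.08 (SE 0.24, 2.11-fold, limma adjusted p = 0.134). Acadm, the medium-chain acyl-CoA dehydrogenase, stood at 56.8, 64.8, 62.9 and 60.2 against 69.0, 97.3 and 104 without overlap (0.53, limma adjusted p = 0.293), and Hadh, a later enzyme of the cycle, at 51.2, 58.3, 47.4 and 37.2 against 50.8, 90.6 and 82.6 (0.59, limma adjusted p = 0.366). The lipid uptake and storage genes Fabp4, Cd36, Lpl and Plin2 had negative differences (-0.49, -0.42, -0.27 and -0.29), none at an unadjusted p under 0.05.

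Cholesterol synthesis and uptake genes were higher in 20 of 22, 4 at an unadjusted p under 0.05 (18.2%, against 3.67%) and 0 lower, at a median of 0.35. The 4 became 2 without diabetic Esm-1 2, diabetic Esm-1 3 or diabetic saline 4, and 8 without diabetic Esm-1 1. Fdft1, squalene synthase, stood at 43.2, 45.3, 37.9 and 26.6 against 46.2, 62.0 and 64.6, without overlap by a narrow margin (0.59, limma adjusted p = 0.327). The list mean on the log2 scale was 4.55 to 4.83 in diabetic saline, and 4.74, 5.13 and 5.08 in diabetic Esm-1 1 to 3, with overlap. With the glomerular mean in the fit the median of the list was 0.20, with 1 gene higher at an unadjusted p under 0.05.

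Glycolysis and glucose transport genes had a median of 0.25, with 24 of 30 higher (4 at an unadjusted p under 0.05, 13.3%, against 3.67%). The 4 became 1 without diabetic saline 3, 2 without diabetic Esm-1 2 and 7 without diabetic Esm-1 1, and with the glomerular mean in the fit the median was 0.09. The 4 genes at that level were Khk, Pck1, Slc2a2 and Ldhb. Khk, which phosphorylates fructose in the proximal tubule, stood at 31.2, 37.0, 22.4 and 24.8 against 50.8, 62.0 and 45.5 (0.86, SE 0.22, limma adjusted p = 0.154). Pck1, the gluconeogenic enzyme of liver and proximal tubule, stood at 83.2, 165, 99.1 and 146.9 against 129.6, 366 and 211 and overlapped (0.85, limma adjusted p = 0.356). Pck1 is also in the proximal tubule list. Slc2a3, described above, was the 1 member lower at that level, and the transporter Slc2a1 differed by 0.24.

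The other higher genes with low p had varied functions. Usp24, a deubiquitinating enzyme, was the 1 gene that DESeq2 called higher, at 161, 123, 123 and 136 in diabetic saline and 196, 209 and 232 in diabetic Esm-1 (0.65, SE 0.15, limma adjusted p = 0.134). Osbpl3, an oxysterol-binding protein, stood at 38.4, 20.4, 28.4 and 35.4 against 53.4, 69.6 and 57.5 (0.98, SE 0.23, limma adjusted p = 0.139). Plekha7, a protein of epithelial adherens junctions, stood at 42.4, 14.8, 33.6 and 23.01 against 51.4, 54.4 and 63.4 (1.06, SE 0.27, limma adjusted p = 0.154). Cdcp1, an epithelial membrane protein phosphorylated by Src kinases, stood at 37.6, 17.6, 11.2 and 17.7 against 41.7, 42.0 and 43.1 (1.10, limma adjusted p = 0.174). In all 4 the Esm-1 libraries lay above every diabetic saline library.

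Genes of the cell's immediate response to stimulation, which dissociation of tissue also induces, were lower in 27 of 33, 8 at an unadjusted p under 0.05 (24.2%, against 7.26%; 5 without diabetic saline 3 or diabetic Esm-1 3), at a median of -0.27 (-0.15 without diabetic saline 4). With the glomerular mean in the fit the median was -0.08, with 4 genes lower at that level. Fos, a subunit of the AP-1 factor, stood at 282, 255, 296 and 455 against 156, 256 and 274 (-0.50, limma adjusted p = 0.356), and Dusp1, a phosphatase of MAP kinases, at 798, 999, 954 and 783 against 646, 741 and 612 (-0.40, limma adjusted p = 0.255). The heat shock gene Hspa1a, which has the near-identical copy Hspa1b, stood at 120.0, 125, 226 and 951 against 119, 174 and 181. Its difference of -0.62 rested on diabetic saline 4 and was 0.05 without that library. Genes of ATF4 and the unfolded protein response had a median of -0.01 over 36 (-0.10 to 0.07 when 1 library was left out). Nupr1, a stress-induced regulator in that list, stood at 286, 363, 299 and 513 against 259, 213 and 163, without overlap (-0.77, SE 0.19, limma adjusted p = 0.14), and DESeq2 called it lower.

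The remaining lists held few differences. Antioxidant genes had a median of 0.10 (0.05 to 0.23 when 1 library was left out), with Gpx1, a glutathione peroxidase, at 78.4, 98.1, 79.2 and 40.7 against 117, 94.4 and 87.4. Clock genes had a median of -0.02 (-0.06 to 0.07), with the repressor Bhlhe41 at 121, 89.8, 59.4 and 49.6 against 128, 97.3 and 103 (0.53, limma adjusted p = 0.449). Inhbb, the beta B subunit of activin and inhibin, stood at 71.2, 137, 88.7 and 44.3 against 37.1, 73.4 and 35.9, with 6.81, 10.9 and 7.48 in non-diabetic glomeruli, and the diabetic groups overlapped (-0.76, limma adjusted p = 0.366). Of 7 tested cell cycle genes 6 were lower, with Ccnd2, cyclin D2, at 56.0, 44.4, 81.0 and 58.4 against 41.7, 36.2 and 41.9 (-0.54, limma adjusted p = 0.327). Apob, which liver and proximal tubule make, was at 43.2, 90.7, 31.9 and 56.7 against 97.0, 60.1 and 83.8, and 3 of 20 listed liver genes reached the minimum. Slc4a1, found in red cells and in intercalated cells of the collecting duct, was at 61.6, 82.4, 93.9 and 44.3 against 71.6, 83.0 and 89.8. The Y-linked Ddx3y was at 69.6, 62.9, 58.6 and 63.7 against 69.7, 53.4 and 45.5.

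**Figure D5:**
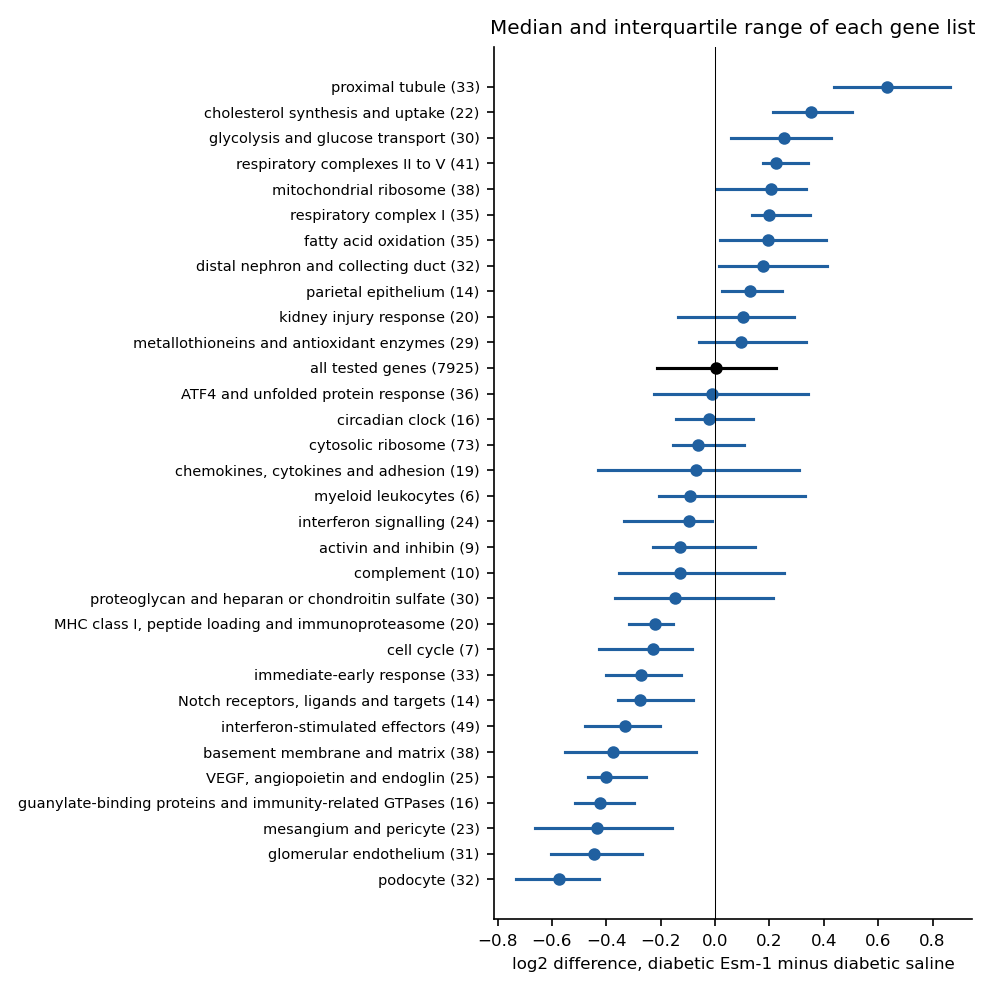
Median (point) and interquartile range (bar) of the log2 difference between diabetic Esm-1 and diabetic saline over the tested genes of each list with at least 5 of them (number in brackets), with all 7925 tested genes in black. Podocyte genes are lowest at -0.58 and proximal tubule genes highest at 0.63, beside 0.0037 for all genes.

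The diabetic saline libraries also enter the comparison with non-diabetic saline, so the values of the comparisons are not independent and are only set side by side. For podocyte genes the median difference of diabetic from non-diabetic saline was -0.32 and that of Esm-1 from diabetic saline -0.58. Endothelial genes gave -0.29 and -0.44. Nphs1 gave -0.51 and -0.78, and Wt1 gave -0.72 and -0.83, so both were lowest in the Esm-1 group. Col4a3 gave 0.00 and -0.71, with the saline groups at 1 level. For the interferon effectors the values were 1.97 and -0.33, and for Usp18 2.76 and -0.85. The guanylate-binding list gave 1.49 and -0.42, and MHC class I genes 0.84 and -0.22. Respiratory complexes II to V gave 0.66 and 0.22, and cholesterol genes 0.37 and 0.35, so these lists were on average highest in the Esm-1 group. In both lists diabetic Esm-1 1 lay within the diabetic saline range. Ackr2 gave -0.88 and -1.47, and Echs1 0.25 and 1.08.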

How the data were processed

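Total RNA of isolated glomeruli was sequenced in 10 libraries, grouped by the labels' injection and treatment. Per the submitters' processing notes, the authors used Trimmomatic 0.36, STAR 2.5.3a, DESeq2 1.28.1 and R 4.0.2 with the mm9 build. Which program counted the reads, on which annotation and with which strand setting is not given in the sources used here, so antisense and overlapping genes cannot be told apart. The deposited signal values are the authors' normalized counts. Dividing by the value of 1 read gave whole reads for 100% of 129340 values (tolerance 0.001). All columns were mapped to samples (0 unused).

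Testing covered genes that reached a value of 10 in 3 or more of the 7 libraries, on log2(value + 1), a scale that understates the change of low genes, with limma 3.58.1 (R 4.3.3, intensity trend, two-sided) in 1 fit of all 10 libraries and 3 groups. P-values were adjusted over all 7925 genes by Benjamini-Hochberg, with a threshold of 0.05. The fit was also run on simulated counts with planted changes. Its recovery of them is not given here, so the lack of calls does not show that changes were absent. Intervals and ratios of reads cover counting error only. Of the gene names, 19 had the form of dates and are not named. Promoter sequences are from RefSeq (GRCm38.p6), with an entry for 6080 tested genes, running from 250 bases before to 50 after the start site.

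The rule named genes past the threshold (none), in each of the 35 lists the member with the largest difference and a mean of at least 50, and Esm1, Ackr2 and Cxcl11, 35 genes in all. A further 53 were chosen after their values were seen. Some selected genes are not reported here but were kept in all tests and list counts. The members and lists were chosen with earlier results of these data known. Alternatives were a pseudocount of 5, no filter, a filter on the mean, common totals, the recovered reads in edgeR 4.0.16 and in DESeq2 1.42.0, limma without the trend, only the 7 libraries, terms for title numbers under 100 and for the mean of the glomerular markers, omission of the low-numbered libraries, and omission of each library in turn. Fits of edgeR and DESeq2 on only the 7 libraries were added after seeing the data.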

Additional observations from a re-analysis of the deposited data

Results flagged for a closer look

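In the diabetic saline group, the only one with 4 libraries, 119 sets of values were checked for a library far from the others, and 6 had one. Chance alone sets such a mark in about 1 in 20 groups. In diabetic saline 1, Col4a3 (557.5), Daam2 (76.8), C1qtnf1 (132) and the mean of the mesangium and pericyte list (5.67 on the log2 scale) were far below the other 3 libraries, so that without this library their differences from diabetic Esm-1 are larger. In diabetic saline 4, the shallowest library, Hspa1a was far above the others at 950.7. Cxcl16 was lowest in diabetic saline 2 at 157.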

How the results depend on the processing

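No paired analysis was possible because the labels give no replicate numbers that the groups share. With 3 and 4 libraries and most reads on ribosomal RNA, low genes have few reads. DESeq2 called 1 gene higher and 29 lower, and on only the 7 libraries 1 and 25. Leaving out 1 library at a time gave 0 to 7 genes called higher and 0 to 45 called lower, and 136 to 375 higher and 336 to 664 lower at an unadjusted p under 0.05. Without the filter, 12934 genes were tested, of which 482 were higher and 708 lower at that level. With the term for the mean of the glomerular markers, 172 of 7925 genes were higher and 183 lower. That term also turned the sign of named genes, to 0.435 for Sfrp2, 0.442 for Cxcl10, 0.381 for Igtp, 0.109 for B2m, -1.279 for Slc12a1, -0.450 for Scin, -0.468 for Spp1, 0.127 for Inhbb, 0.103 for Cd14, 0.874 for Cxcl11, 0.034 for Podxl, 0.092 for Nes, 0.107 for Synpo, 0.205 for Rsad2, 0.407 for Iigp1, 0.116 for Lgals9, 0.194 for Lamb2, 0.311 for Kdr, -0.604 for Umod and -0.246 for Lcn2. Hspa1a ranged from -0.944 to 0.047 when 1 library was left out, 0.047 being the value without diabetic saline 4 and also without both libraries with title numbers under 100. Of the genes turned by the term, Sfrp2, Podxl, Synpo and Kdr are themselves glomerular markers, so a shift of them is built into that fit. The marker mean did not overlap between the diabetic groups, so the term cannot be told apart from the plasmid. The cause of the other changes was not tested. Over leave-one-out fits the median stayed between -0.76 and -0.50 for podocyte, -0.56 and -0.35 for endothelial, -0.52 and -0.38 for mesangial, -0.39 and -0.27 for interferon effector and 0.44 and 0.91 for proximal tubule genes.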
